A study of Mus musculus with 8 samples.

Results

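The genes described here encode the proteins of the cytoplasmic ribosome, and their mRNAs were measured in mouse leukaemia stem cells, the self-renewing part of a HOXA9/MEIS1-driven acute myeloid leukaemia (AML). Members were the rows of the deposited table whose symbol has the form of a ribosomal protein name of the large (Rpl) or small (Rps) subunit, with the stalk proteins Rplp0 to Rplp2 and Rpsa, and without gene models and pseudogenes named -ps. The rule gave 88 of 48500 genes, 53 of the large and 35 of the small subunit. Of these, 77 are standard subunits and 11 are paralogues or numbered copies, and GENCODE M21 types 5 of the 11 as pseudogenes (Rpl6l, Rpl32l, Rps4l, Rps3a2 and Rps3a3). The libraries were 4 from Nynrin-KO mice (Nynrin-/-, KO1 to KO4) and 4 from wild-type mice (Nynrin+/+, WT1 to WT4), all with the same driven leukaemia. About 10000 bone marrow cells that carried GFP and c-Kit and lacked Gr-1 were sorted for each library, while no source used here gives the age of the mice, a treatment or the part of Nynrin deleted. The labels do not tie libraries to separate mice, so the p-values reflect the spread among these 8 libraries, which may be technical.

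A ribosome is built from a large subunit, which joins amino acids, and a small subunit, which reads the mRNA, and each needs about equal amounts of its many proteins. Mammalian cells match them mainly by common features of the mRNAs, above all a run of pyrimidines at the start of the message (the TOP motif) through which mTOR and LARP1 set their translation. Dividing blood progenitors hold large amounts of these mRNAs, and blood formation is sensitive to the loss of a single ribosomal protein gene, as Diamond-Blackfan anaemia shows in human patients.

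Start regions from RefSeq were at hand for 64 of the 88 members, and a few from genes described below are shown, from 100 bases before to 30 after the listed start. Rps26 and Rps28 are shown as the members with the largest falls, and hold none of the 3 motifs searched in this stretch. The other 6 were picked among the genes described because they hold one, so they do not show how common the motifs are. Capitals mark the letters searched, on both strands. In Rpl41, Rpl11 and Rps27l they are the core bound by ETS factors, CCGGAAG. In Rps27 and Rpl7l1 they are the core bound by YY1, AAGATGG. In Rpl22l1 they are the box bound by the general factor TBP, TATAAA, which overlaps a match on the other strand there. The build is GRCm38.p6, coordinates count from 1, and each sequence runs 5′ to 3′ on the gene's strand.
Rps26 (chr10:128626477-128626606, minus strand): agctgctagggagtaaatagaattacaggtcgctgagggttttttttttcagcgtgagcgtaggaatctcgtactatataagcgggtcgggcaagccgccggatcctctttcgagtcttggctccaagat
Rps28 (chr17:33824533-33824662, minus strand): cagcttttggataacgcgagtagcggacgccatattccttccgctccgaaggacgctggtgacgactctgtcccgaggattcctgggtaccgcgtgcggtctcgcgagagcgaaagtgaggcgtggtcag
Rpl41 (chr10:128549139-128549268, minus strand): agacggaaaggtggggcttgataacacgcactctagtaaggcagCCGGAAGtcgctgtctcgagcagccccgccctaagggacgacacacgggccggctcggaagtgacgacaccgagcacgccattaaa
Rpl11 (chr4:136053364-136053493, minus strand): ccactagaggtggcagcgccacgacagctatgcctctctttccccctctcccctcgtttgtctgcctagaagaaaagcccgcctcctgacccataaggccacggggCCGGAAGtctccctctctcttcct
Rps27 (chr3:90213619-90213748, minus strand): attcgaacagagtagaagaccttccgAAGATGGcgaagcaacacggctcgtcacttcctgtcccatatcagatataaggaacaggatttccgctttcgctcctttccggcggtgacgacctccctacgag
Rps27l (chr9:66945986-66946115, plus strand): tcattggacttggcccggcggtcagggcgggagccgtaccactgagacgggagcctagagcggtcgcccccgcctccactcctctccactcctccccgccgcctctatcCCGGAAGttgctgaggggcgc
Rpl7l1 (chr17:46782627-46782756, minus strand): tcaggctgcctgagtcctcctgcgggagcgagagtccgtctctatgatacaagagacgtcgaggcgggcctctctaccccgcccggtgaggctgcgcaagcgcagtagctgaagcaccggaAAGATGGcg
Rpl22l1 (chr3:28805408-28805537, plus strand): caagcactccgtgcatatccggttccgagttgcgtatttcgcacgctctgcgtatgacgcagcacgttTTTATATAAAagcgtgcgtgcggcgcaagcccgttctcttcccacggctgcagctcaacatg
Within the full window of 250 bases before to 50 after the start, the ETS core stood in 26 of 64 members, or 40.6%, against 9.93% of 27025 genes, and most members lacked each motif. It stood in 37.7% of 69 mitochondrial ribosomal protein genes. The YY1 core stood in 10 members, or 15.6%, against 7.28% of all genes, and the TATA box in 8 members, or 12.5%, against 15.7%. In this full window Rps26 held a YY1 and an ETS core and Rps28 a TATA box, outside the stretches printed. By subunit, the ETS core stood in 37.5% of 40 large and 45.8% of 24 small subunit members. Rps27 and its paralogue Rps27l, which moved by different amounts, held different motifs in the window, and no link between a motif and a level was tested.

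The libraries differed widely in depth, from 1.83 to 33.09 M reads (M for mega) recovered from the FPKM (fragments per kilobase of transcript, scaled to the depth of the library), and KO3 and WT3 were the shallow ones at 1.83 and 1.96 M reads. A transcript of 1 kb would need 1.64 FPKM in KO3 but only 0.0907 FPKM in WT1 to give 3 reads, so values near 1 FPKM rest on few reads in KO3 and WT3. These floors cover counting error only. Of 13 neutrophil markers, 7 rose in Nynrin-KO, while 14.0% of all genes tested rose. The summed level of the 13 was 127500 to 283000 FPKM in Nynrin-KO and 3934 to 106300 FPKM in WT, although Gr-1-positive cells had been gated out. The 13 were Ly6g, Ly6c2, S100a8, S100a9, Retnlg, Camp, Ltf, Ngp, Mmp8, Mmp9, Cxcr2, Csf3r and Wfdc21. Most of their sum came from S100a8, S100a9, Ngp and Camp, none of which was among the 7 that rose. Of 7 macrophage markers 5 rose (327.5 to 889.8 FPKM summed in Nynrin-KO, 140.5 to 252.9 in WT). The others, Adgre1 and Cd68, had no call (log2 change -0.02 and -0.11). Both erythroid markers that could be tested rose (5.69 to 45.7 FPKM summed over 7 in Nynrin-KO, 0.26 to 2.24 in WT). Among 3 tested lymphoid markers 2 rose (110.3 to 232.3 FPKM summed over 6 in Nynrin-KO, 0.85 to 11.1 in WT), and Ms4a1 had no call. The part of macrophage, erythroid and lymphoid RNA in the results below was not tested. The erythroid marker Hbb-bs was at 0 in all WT libraries but WT4, and no marker was at 0 in all 8 libraries. Of the markers of the sorted cells, Kit was present in both groups with no call (2.92 to 4.91 FPKM in Nynrin-KO, 2.63 to 6.40 in WT). Cd34 and Flt3 fell by 3.48 and 1.65 on the log2 scale, and Meis1 and Hoxa9 were 1.33 and 1.08 higher. Hoxa9 was low and its groups overlapped (1.70 to 6.38 FPKM in Nynrin-KO, 0.569 to 1.90 in WT).

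Nearly every ribosomal protein gene was lower in Nynrin-KO. Of the 84 members that passed the filter on low values (1 FPKM or more in 4 or more libraries), 82 fell and 0 rose at an adjusted p under 0.05 (limma on log2(FPKM + 1), Benjamini-Hochberg over all 12524 genes tested), while 13.8% of all genes fell and 14.0% rose. Of the members, 1 was higher at an unadjusted p under 0.05, and limma-voom on recovered reads called 82 lower and 1 higher. The higher member was Rpl3l in both, which entered the test through the Nynrin-KO libraries alone. The median log2 change of the 84 was -1.90, with an interquartile range of -2.03 to -1.63, against a median of -0.03 over all genes tested. Every Nynrin-KO library lay below every WT library for 81 of the 84 members, against 15.0% of all genes. Among the 731 other genes with a mean level of similar height, at least 50 FPKM, 37.9% fell. In bulk samples, fewer cells of a type and less RNA per cell cannot be told apart.

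The count is lost when the neutrophil markers enter the fit. With their mean log2 level as a covariate, which correlates 0.75 with genotype, 0 of the 84 members and 8 genes in all were called, although 82 members stayed below 0, 74 had an unadjusted p under 0.05, the smallest adjusted p was 0.0628 and the median log2 change was -1.31. Members took 1.28, 1.41, 1.09 and 1.67% of the reads in KO1 to KO4, against 7.79, 5.45, 3.77 and 4.20% in WT1 to WT4. After the reads of the 13 neutrophil markers and of the repeat-like gene Gm10800 were left out, the shares were 1.64% ± 0.226 in Nynrin-KO and 5.76% ± 1.59 in WT (SD, n = 4 each), a ratio of 0.285 in place of 0.256. Within the 5 libraries with high Gm10800 (KO1, KO3, WT2, WT3 and WT4), 75 members fell with a median log2 change of -1.84. Xist and Y-linked reads set KO2, KO3 and KO4 apart from the WT libraries, so genotype and sex cannot be told apart in 7 of the 8 libraries. KO1 held both Xist (12.7 FPKM) and the Y-linked Ddx3y (2.18 FPKM, against at most 0.111 FPKM in WT), so its sex is unclear. The 4 X-linked members (Rpl10, Rpl36a, Rpl39 and Rps4x) fell by 1.78 to 2.16 on the log2 scale, within the range of the others.

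**Figure D1:**
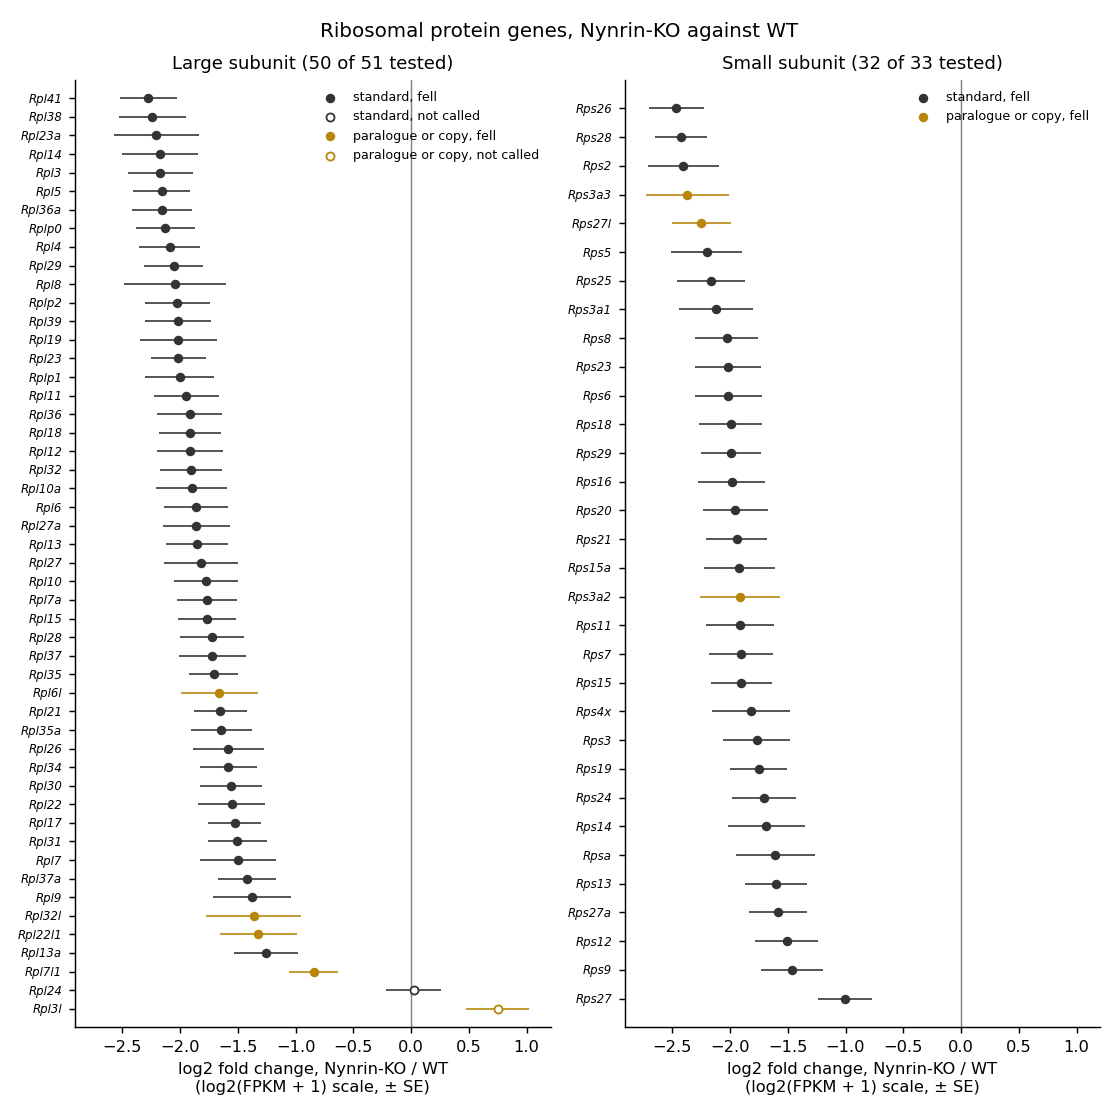
Log2 fold change of Nynrin-KO over WT (x axis, log2(FPKM + 1) scale, bars ± SE) for 50 of the 51 large and 32 of the 33 small subunit members tested, ordered by size. Filled points fell at an adjusted p under 0.05, open points did not, and only Rpl24 and Rpl3l are open.

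The fall was shared by both subunits. In the large subunit 49 of 51 members fell (median log2 change -1.82), and in the small subunit 33 of 33 (median -1.94). With paralogues and copies left out, 45 of 46 large and 30 of 30 small subunit members fell, with medians of -1.86 and -1.93. The spread across genes was of like size in the standard members of both subunits, with an SD of 0.37 in the large and 0.31 in the small subunit on the log2 scale. The summed level of the large subunit members was 6777 ± 1180 FPKM in Nynrin-KO and 26720 ± 8817 FPKM in WT, and that of the small subunit members 4799 ± 801 FPKM in Nynrin-KO and 18660 ± 6666 FPKM in WT (SD, n = 4 each). Both sums were about equally reduced, to 0.254 and 0.257 of the WT mean.

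The balance between the subunits within a library barely moved. The ratio of summed large to small subunit FPKM was 1.43, 1.40, 1.39 and 1.43 in KO1 to KO4, against 1.40, 1.41, 1.495 and 1.47 in WT1 to WT4. The means were 1.41 ± 0.020 in Nynrin-KO and 1.44 ± 0.045 in WT, and the groups overlapped. The members' share of all FPKM was 1.45, 1.97, 1.13 and 2.18% in KO1 to KO4, against 11.9, 6.93, 4.40 and 5.40% in WT1 to WT4, so the highest Nynrin-KO library stayed below the lowest WT library. Among Nynrin-KO libraries KO4 was the highest for 63 of the 88 members and the shallow KO3 the lowest for 67. WT1, which held the least neutrophil marker RNA (0.701% of its FPKM, against 7.72 to 16.1% in WT2 to WT4), was the highest WT library for 83 members, and the shallow WT3 the lowest for 64. KO3 and WT3 also held the most Gm10800 of their groups, at 126894 and 142257.5 FPKM. The part of depth or of Gm10800 in this order was not tested.

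**Figure D2:**
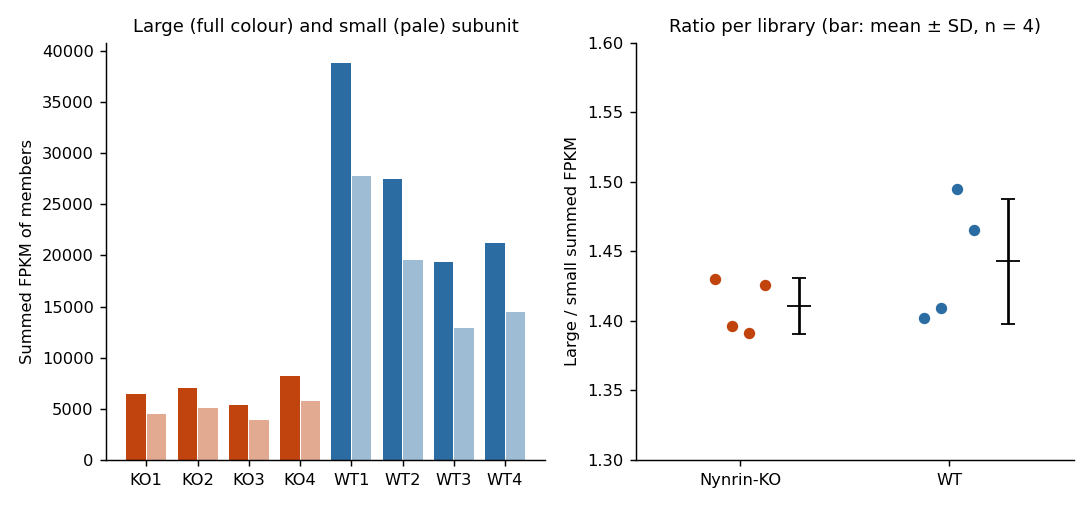
Left, summed FPKM of the large (full colour) and small (pale) subunit members in each library, Nynrin-KO then WT. Right, the ratio of the sums per library with mean ± SD (n = 4), on an axis that does not start at 0; the sums show no overlap between groups while the ratio stays between 1.39 and 1.495.

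The largest falls were in small subunit genes. Rps26 (coordinates here and below are from GENCODE M21, build GRCm38, chromosome 10, 128624534 to 128626747), whose protein sits at the mRNA exit of the small subunit, had 180.5, 159.6, 137 and 187 FPKM in KO1 to KO4, against 1262, 1012, 839.7 and 656 FPKM in WT1 to WT4. Its mean was 5.67-fold lower in Nynrin-KO, a log2 change of -2.47 (SE 0.24, adjusted p = 0.00104). Rps28 (chromosome 17, 33819027 to 33824562), whose protein lies beside it, had 41.2, 49.9, 42.1 and 45.5 FPKM in Nynrin-KO, against 314, 260.5, 257 and 166 FPKM in WT. The groups lay far apart for both genes, and Rps28 had the smallest adjusted p of all members, 0.00101 (log2 change -2.42). Rps2, a protein at the mRNA entry, had 237, 283, 174 and 353 FPKM in Nynrin-KO, against 2227, 1083, 1273 and 1066 FPKM in WT (log2 change -2.40, adjusted p = 0.00183). Differences in fall between single members were tested for paralogues and their parents alone.

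Among the large subunit genes, Rpl41, Rpl5, Rpl23 and Rpl36a had some of the clearest falls. Rpl41 (chromosome 10, 128548114 to 128549305), which encodes one of the shortest proteins of the cell, had 341, 378, 282 and 390.4 FPKM in Nynrin-KO, against 2442, 1861, 1361 and 1265 FPKM in WT (log2 change -2.27, SE 0.25, adjusted p = 0.00143). Its start region, printed above, holds an ETS core. Rpl23 and Rpl36a changed by -2.01 and -2.16 (adjusted p = 0.00151 and 0.00157).

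The members with the highest levels fell as well. Rplp0, the base of the P stalk on which elongation factors land, had 749, 861, 659 and 1129.7 FPKM in KO1 to KO4, against 5139, 3827, 2861 and 3129 FPKM in WT1 to WT4 (log2 change -2.13, adjusted p = 0.00157). It was the highest member in both groups and took 6.86 to 8.07% of the members' sum in Nynrin-KO and 7.72 to 8.88% in WT. Rpl4, which lines the tunnel for the growing protein, had 598, 565, 512 and 869 FPKM in Nynrin-KO, against 3930.2, 2702, 2036 and 2291 FPKM in WT. Rpl10, a late-joining protein needed before the subunits meet, was at 449.9 ± 98 FPKM in Nynrin-KO and 1578 ± 535 FPKM in WT (SD, n = 4 each, log2 change -1.78). Among small subunit genes, Rps29 was at 387 ± 39.8 FPKM in Nynrin-KO and 1601 ± 542 FPKM in WT, and Rps3a1 at 276 ± 63.1 FPKM in Nynrin-KO and 1270.0 ± 560 FPKM in WT. Across 76 standard members the log2 change had a Spearman correlation of -0.28 with the mean level and 0.22 with transcript length, a description over genes that share libraries.

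**Figure D3:**
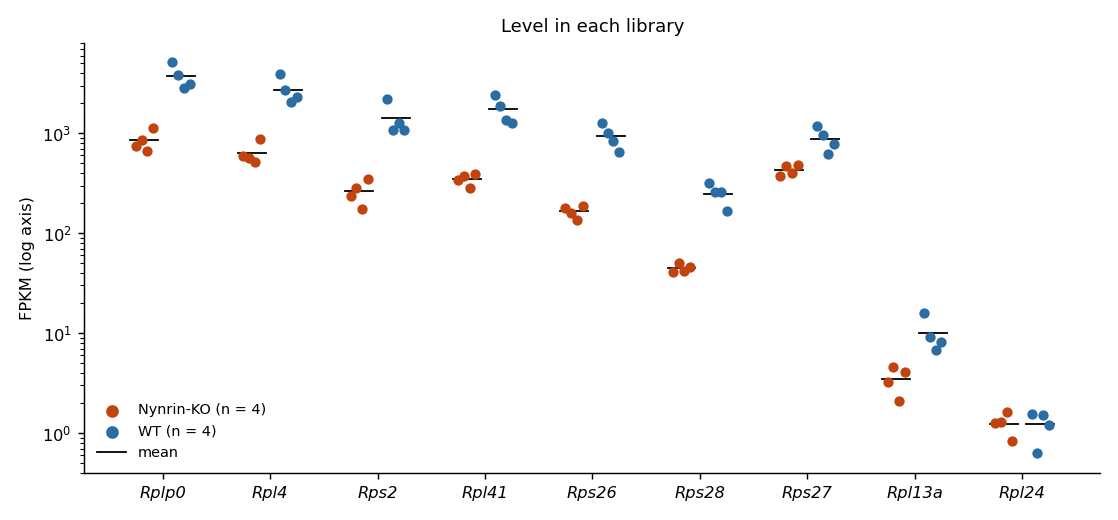
FPKM (log axis) in each of the 4 Nynrin-KO and 4 WT libraries for 9 members, with the mean as a bar. The groups are apart for every gene shown except Rpl24, and closest among the others for Rps27, where the highest Nynrin-KO library (485 FPKM) lies below the lowest WT library (626 FPKM).

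All members of the functional groups that could be tested fell. The P stalk partners Rplp1 and Rplp2, acidic proteins that recruit elongation factors, changed by -2.004 and -2.024 on the log2 scale (adjusted p = 0.00255 and 0.00217). Rpl5 had 113, 117, 102 and 140.3 FPKM in Nynrin-KO, against 768, 579, 409 and 426 FPKM in WT (log2 change -2.16, adjusted p = 0.00146). Rpl11, its partner in the 5S particle that can bind Mdm2 when ribosome assembly stalls, had 119.9, 147, 100.3 and 157 FPKM in Nynrin-KO, against 791, 539.9, 379.5 and 388 FPKM in WT (log2 change -1.95, adjusted p = 0.00235). Neither gene had a Nynrin-KO library near the WT range. Of 18 genes whose human counterparts are mutated in Diamond-Blackfan anaemia, 17 were tested and 17 fell, between -2.47 for Rps26 and -1.01 for Rps27. Of 7 members with regulated or extraribosomal roles (Rps6, Rps3, Rpsa, Rps14, Rpl10a, Rpl38 and Rpl13a) 7 fell, led by Rpl38 at -2.24, a gene known in the mouse for its part in translating Hox mRNAs. These 2 lists share no gene, but both were put together with results of these data known, and nearly all members fell.

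On the log2(FPKM + 1) scale, the smallest falls were in Rpl7l1, Rps27, Rpl13a, Rpl22l1 and Rpl32l. This scale understates the change of low genes such as Rpl13a and Rpl32l. Their mean FPKM was 2.85- and 2.82-fold lower in Nynrin-KO, and by that measure a few members with higher levels fell less. Rps27 (chromosome 3, 90212522 to 90213651), a zinc finger protein of the small subunit, had 372, 468, 397 and 485 FPKM in KO1 to KO4, against 1174, 960.3, 626 and 776 FPKM in WT1 to WT4. Its log2 change was -1.01 (SE 0.23, adjusted p = 0.0133), the smallest fall of any standard member that passed. Its share of the members' sum was 3.41 to 4.27% in Nynrin-KO and 1.76 to 2.18% in WT, without overlap. Rpl13a, a target of interferon-linked kinases in human monocytes, had 3.22, 4.56, 2.09 and 4.13 FPKM in Nynrin-KO, against 15.9, 9.04, 6.81 and 8.09 FPKM in WT (log2 change -1.26, adjusted p = 0.0112). Both genes kept groups that did not overlap, but Rpl13a rested on 4 reads in KO3 and 14 in WT3.

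The paralogues did not all follow their parents. Rps27l (chromosome 9, 66946086 to 66949516), a close relative of Rps27 known in the mouse as a target of p53, had 67.7, 76.8, 49.5 and 86.6 FPKM in KO1 to KO4, against 459, 361, 272 and 263 FPKM in WT1 to WT4. Its log2 change was -2.25 (SE 0.26, adjusted p = 0.00146), one of the larger falls, while its parent had one of the smallest. Rps27l stood at 18.2, 16.4, 12.5 and 17.9% of the Rps27 level in Nynrin-KO, against 39.1, 37.6, 43.5 and 33.9% in WT. The log2 ratio was 1.24 lower in Nynrin-KO (exact two-sided permutation over 70 arrangements of 4 against 4, p = 0.0286, the smallest possible, 0.0381 after Benjamini-Hochberg adjustment over the 4 pairs tested), and lower in 4 of 4 libraries. The coding sequences are 81.1% identical with no identical run longer than 11 bases. The 4 pairs include Rpl3l and Rpl3, whose p is not given because Rpl3l entered through the Nynrin-KO libraries alone. Without that pair the adjusted p of Rps27l, and that of Rpl7l1 below, would be larger.

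Rpl7l1 went the other way relative to its parent. Rpl7l1 (chromosome 17, 46773907 to 46782672), a homologue of Rpl7, had 24.9, 27.5, 20.8 and 32.3 FPKM in Nynrin-KO, against 58.7, 54.7, 36.8 and 43.3 FPKM in WT. This was the smallest fall of all, a log2 change of -0.84 (SE 0.22, adjusted p = 0.0193). Rpl7l1 stood at 23.9, 21.5, 21.8 and 23.3% of Rpl7 in Nynrin-KO, against 10.2, 15.1, 19.4 and 15.1% in WT, and the log2 ratio was 0.65 higher in Nynrin-KO (exact permutation p = 0.0286, adjusted 0.0381 over the 4 pairs). With any 1 Nynrin-KO library left out the exact p was 0.0571, and KO2 and WT3 were the libraries nearest to each other.

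Rpl22l1 (chromosome 3, 28805436 to 28807424), whose mRNA is restrained by Rpl22 in the mouse, had 7.63, 8.64, 3.16 and 9.09 FPKM in Nynrin-KO, against 27.9, 19.995, 12.6 and 15.6 FPKM in WT (log2 change -1.32, adjusted p = 0.0187). Its parent Rpl22 changed by -1.55 (adjusted p = 0.0058). Rpl22l1 stood at 84.3, 80.3, 30.3 and 78.2% of Rpl22 in Nynrin-KO, against 51.5, 49.8, 60.9 and 63.3% in WT, and the difference in log2 ratio of 0.23 was within the spread (exact permutation p = 0.571, adjusted over the 4 pairs 0.571). The shallow library KO3 was the low one, with 11 reads of Rpl22l1. Without it the difference was 0.53 (exact permutation p = 0.0286, not adjusted and the smallest possible there). KO3 was singled out after its value was seen, so that p is no separate test.

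**Figure D4:**
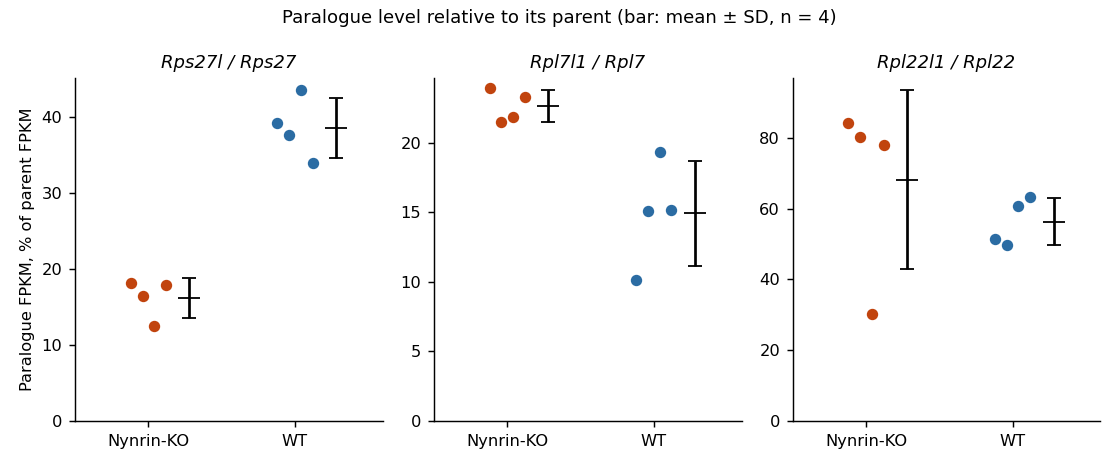
FPKM of Rps27l, Rpl7l1 and Rpl22l1 as a percent of the FPKM of their parents in each library, Nynrin-KO left of WT, with mean ± SD (n = 4). Rps27l lies at 12.5 to 18.2% in Nynrin-KO and 33.9 to 43.5% in WT, Rpl7l1 at 21.5 to 23.9% in Nynrin-KO and 10.2 to 19.4% in WT, and the groups overlap for Rpl22l1.

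The tissue-restricted paralogues were near the limit of detection. Rpl3l (chromosome 17, 24727820 to 24736143), the form of Rpl3 used in striated muscle, had 1.304, 1.51, 1.19 and 1.115 FPKM in KO1 to KO4, against 0.198, 0.925, 0 and 0.464 FPKM in WT1 to WT4. It had the highest log2 change of the members tested, but it did not pass (log2 change 0.75, SE 0.27, adjusted p = 0.0686), and it entered the test through the Nynrin-KO libraries alone. The counts behind it were 17, 48, 3 and 44 reads in Nynrin-KO and 9, 9, 0 and 11 reads in WT. Its log2 ratio to Rpl3 was 2.92 higher in Nynrin-KO, where Rpl3 itself had a log2 change of -2.17, and no p is given for the ratio, since the gene entered through 1 group.

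Rpl39l and Rpl10l, known from the testis, and Rps4l had too few reads for the test. Rpl39l had 2 reads in KO1 and 0 in the other Nynrin-KO libraries, against 2, 8, 0 and 0 reads in WT. Rpl10l had 2 reads in KO3 and 0 in the other Nynrin-KO libraries, against 0, 2, 2 and 5 reads in WT. Rps4l, typed as a transcribed processed pseudogene, had 9, 11, 0 and 33 reads in KO1 to KO4, against 0, 0, 0 and 2 reads in WT1 to WT4, or 1.01, 0.506, 0 and 1.22 FPKM in Nynrin-KO against 0, 0, 0 and 0.123 FPKM in WT. Rps4l was thus seen in 3 of 4 Nynrin-KO libraries and 1 of 4 WT libraries, with no test.

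The copies that resemble their parents most fell with them. Rpl6l, 98.7% identical to the Rpl6 coding sequence over 871 aligned bases with a longest identical run of 354, changed by -1.66 (adjusted p = 0.0075) and Rpl6 by -1.86. Rps3a3, 99.0% identical to that of Rps3a1, had 1.59, 2.51, 5.51 and 4.43 FPKM in Nynrin-KO, against 29.7, 17.8, 28.2 and 12.6 FPKM in WT (log2 change -2.37, adjusted p = 0.00273), and Rps3a2, 99.5% identical, changed by -1.92. Rpl32l, 97.5% identical to Rpl32, had 3.97, 1.20, 6.86 and 2.18 FPKM in Nynrin-KO, against 5.53, 13.8, 12.8 and 7.997 FPKM in WT, an overlap between groups with the weakest call of the 82 (log2 change -1.36, adjusted p = 0.0377). Reads may be shared between these copies and their parents, since no source used here says how a read that matches several genes was counted, so their own levels are uncertain. The same holds for the 305 pseudogene rows named after 63 members, whose sum was 831 ± 122 FPKM in Nynrin-KO and 3240.0 ± 902 FPKM in WT, or 7.45% ± 2.35 of the members' own sum in Nynrin-KO and 7.25% ± 0.73 in WT (SD, n = 4 each). With these rows added to the members, 82 fell.

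Among standard members, Rpl24 and Rps10 stood apart by very low levels in both groups. Rpl24 (chromosome 16, 55966275 to 55971435), which bridges the subunits, had 1.25, 1.28, 1.62 and 0.824 FPKM in KO1 to KO4, against 1.56, 0.626, 1.51 and 1.20 FPKM in WT1 to WT4, from 2 to 20 reads in Nynrin-KO and 2 to 35 in WT. The groups overlapped fully (log2 change 0.02, SE 0.24, adjusted p = 0.957). Rps10 (chromosome 17, 27630418 to 27636669), of the small subunit head, was untested with 0.357, 0.636, 0 and 0.314 FPKM in Nynrin-KO, against 1.43, 0.7965, 0 and 0.523 FPKM in WT. Its pseudogene Rps10-ps2 had 12.8, 14.9, 5.52 and 18.5 FPKM in Nynrin-KO, against 125, 79.8, 39.0 and 54.3 FPKM in WT. In GENCODE M21, 47.0% of the exonic bases of Rpl24, 20.6% of those of Rps10 and 35.4% of those of the low member Rpl13a lie in exons of another gene on the same strand, namely Gm28037, RPS10-NUDT3 and Gm45713, which were not analysed here. The part of this overlap in the low levels was not tested.

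Ribosomal proteins whose symbols fall outside the rule moved the same way. Rack1, a scaffold on the small subunit, had 34.5, 39.0, 25.7 and 43.0 FPKM in Nynrin-KO, against 222, 149.96, 87.3 and 104 FPKM in WT (log2 change -1.89, adjusted p = 0.00355). Fau, made as a fusion to a ubiquitin-like domain, changed by -1.21, and Rpl36al and Rps27rt by -0.93 and -1.34. Of the list of 5 such genes, 5 fell, against 13.8% of all genes tested. None were higher even at an unadjusted p under 0.05, and the median log2 change was -1.21. Rps27a, a fusion to ubiquitin inside the rule, changed by -1.59 (adjusted p = 0.00313).

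Other mRNAs of the translation system moved to varying degrees. Of all genes tested 13.8% fell, and of those outside the members with a mean level of at least 50 FPKM 37.9% fell. Of 15 non-ribosomal TOP mRNAs 13 fell, 15 were lower at an unadjusted p under 0.05, and the median log2 change was -1.33. The elongation factor Eef1a1 had 1264, 1529, 1268 and 1992 FPKM in Nynrin-KO, against 9350.1, 6756, 4779 and 5479 FPKM in WT (log2 change -2.10, adjusted p = 0.00163), and the poly(A)-binding protein gene Pabpc1 (log2 change -0.69, adjusted p = 0.0544) and Eif3f (-0.89, adjusted p = 0.0589) did not pass. Of 10 chaperones and loaders of single ribosomal proteins 7 fell, with a median of -1.05. They were led by Grwd1, the counterpart of a chaperone of Rpl3 in yeast (log2 change -1.79, adjusted p = 0.00217), and Rrs1, the counterpart of a yeast factor that brings the 5S particle to the large subunit (-1.51, adjusted p = 0.00756). Heatr3, an import factor of RPL5 in human cells, changed by -1.33 (adjusted p = 0.00307). Their clients Rpl3 and Rpl5 changed by -2.17 and -2.16.

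Regulators of ribosomal protein mRNA translation and mitochondrial ribosomal proteins had medians nearer to 0. Of 9 regulators 1 fell, Eif4e, the cap-binding protein (log2 change -1.08, adjusted p = 0.0116), a share near the 13.8% of all genes tested that fell, and the median was -0.02. Larp1, which binds TOP mRNAs, was at 2.36, 3.58, 2.56 and 3.56 FPKM in Nynrin-KO, against 4.70, 5.15, 2.54 and 4.38 FPKM in WT, with overlap and no call (adjusted p = 0.253). Mtor was likewise not called (log2 change -0.11, adjusted p = 0.692). Of 76 mitochondrial ribosomal protein genes tested, 28 fell and 1 was higher at an unadjusted p under 0.05, with a median log2 change of -0.63 and Mrps28 in the lead (-1.69, adjusted p = 0.00152). This is 36.8% of those tested, against 13.8% of all genes, but the count moved with single libraries, to 17 without KO1, 16 without KO2, 15 without WT1 and 16 without WT2, and it was 7 without both KO1 and WT1 and 49 with Gm10800 as a covariate. With the neutrophil covariate no gene of these translation lists was called. No gene of the lists of the translation system rose at an adjusted p under 0.05 by limma, and differences between lists were not tested.

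**Figure D5:**
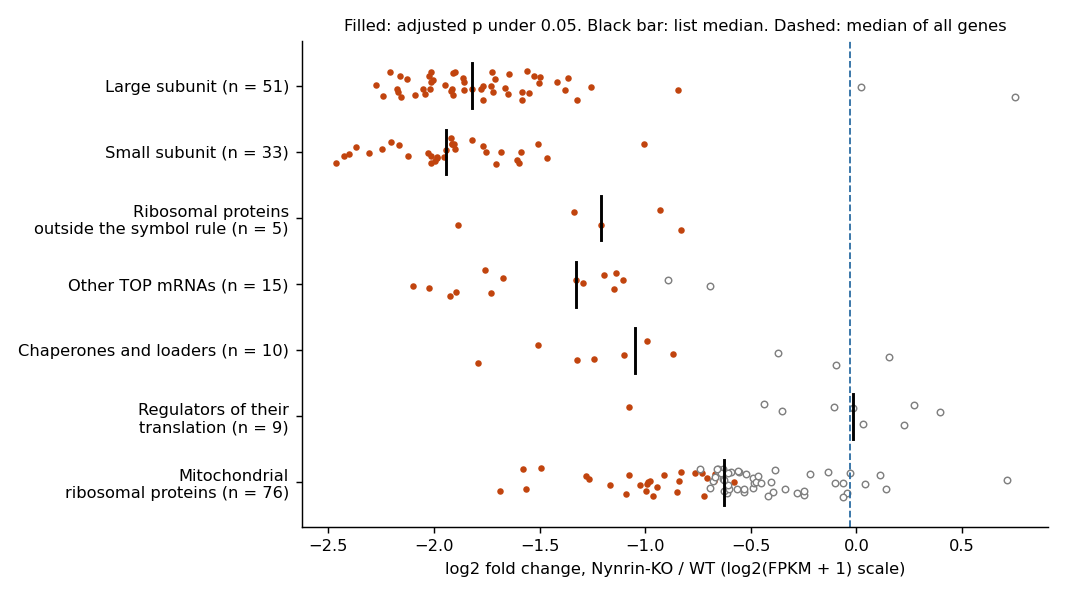
Log2 fold change of Nynrin-KO over WT (x axis, log2(FPKM + 1) scale) for each tested gene of 7 lists, with the list median as a black bar and the median of all genes tested as a dashed line. Filled points passed an adjusted p of 0.05; the medians of the large and small subunit are -1.82 and -1.94, that of the regulators is -0.02, and that of the mitochondrial ribosomal proteins is -0.63.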

How the data were processed

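The authors deposited 1 table of 48500 genes and 8 libraries whose header names no unit. The authors made the deposited values, which were read as FPKM, because a single step per library turned 99.42 to 99.47% of the values into whole reads (within 0.1 read) once multiplied by the longest GENCODE M21 transcript of the gene, which 48315 genes had. Per the submitters' processing notes, mm10 was the build, and Cufflinks 2.1.1, Bowtie 0.12.9 and HTSeq were used, in roles that the notes leave out. For the counting rule, strand and multiply matching reads, settings are not given in any source used here.

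The limma test (version 3.58.1, R 4.3.3, trend and robust variances, both tails) took log2(FPKM + 1) of genes at 1 FPKM or more in 4 or more libraries, with Benjamini-Hochberg adjustment at 0.05 over all genes tested. Fold changes on this scale understate the change of low genes. A gene can pass the filter through 1 group alone. Paralogue ratios, log2((paralogue FPKM + 1)/(parent FPKM + 1)), were tested by exact permutation for the 4 pairs with at least 1 FPKM of the paralogue in 4 libraries. Tables, alignments and plots used Python 3.11.15, numpy 2.4.6, pandas 2.3.3, biopython 1.88 and matplotlib 3.10.9. The limma step was tested on simulated data with known changes. Start regions are from RefSeq (GRCm38.p6).

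The members and lists were chosen with earlier results of these data known. Named are all paralogues, members that did not fall or were not tested, the 5 of each subunit with the smallest p, the 5 largest and 5 smallest falls, the 3 highest of each subunit, the P stalk and 5S members, and up to 4 genes per other list, apart from a few items that are not reported here. Rps3a2, Rpl38, Rps27a, the parents and the X-linked members are outside this rule and were named after their values were seen. Alternatives covered the pseudocount, filter, scaling, limma options, covariates, replicate block, voom on recovered reads, pseudogene reads, thresholds and libraries left out.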

Additional observations from a re-analysis of the deposited data

Results flagged for a closer look

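Within a group of 4 libraries, a value was picked out when its gap to the nearest of the others exceeded 0.829 of the range of the group (Dixon's test). Of 74 groups checked, 5 were picked out, and chance gives about 1 in 20. Rpl10l was at 1.07 FPKM in KO3 and at 0 in the other Nynrin-KO libraries, from 2 reads in a shallow library. Rpl39l was at 0.262 FPKM in KO1 and at 0 in the other Nynrin-KO libraries, also from 2 reads, and at 1.40 FPKM in WT2 against at most 0.0751 FPKM in the other WT libraries, from 8 reads. Rps4l was at 0.123 FPKM in WT4 and at 0 in the other WT libraries, from 2 reads. The log2 ratio of Rpl22l1 to Rpl22 was -1.46 in KO3, where Rpl22l1 rested on 11 reads, below the other Nynrin-KO libraries.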

How the results depend on the processing

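The number of members that fell was 80 to 82 with any 1 library left out, and 74 to 82 under every other alternative (74 at an adjusted p of 0.01) except the neutrophil covariate. With that covariate 0 members fell (0 large, 0 small), with medians of -1.31 over all, -1.29 in the large and -1.39 in the small subunit, and 4 of all genes fell and 4 rose. The median log2 change of the members was -1.38 after quantile scaling. The number that rose was 1, in the large subunit, without trend and robust variances, with a pseudocount of 5, after quantile scaling and with voom; it was Rpl3l each time, which entered the test through the Nynrin-KO libraries alone. Of 675 comparisons over 26 named members, 618 kept their side of the threshold, 53 lost the call and 4 gained it. Direction was compared only where a call was made, and there 0 reversed. The uncalled Rpl24 changed sign in some fits, ranging from -0.12 to 0.12 with 1 library left out.

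Over all genes, where 1734 fell and 1754 rose, 736 fell and 258 rose in the 5 libraries high in Gm10800, 908 and 790 with no filter, 954 and 865 without KO1 and WT1, and 783 and 671 at an adjusted p of 0.01, while 969 rose with a log2 change of at least 1. With 1 library left out 1210 to 1859 fell and 1153 to 1982 rose. Of the other lists, the number that fell with the neutrophil covariate was 0 TOP mRNAs, 0 chaperones, 0 regulators, 0 mitochondrial and 0 outside the symbol rule. In the 5 libraries high in Gm10800 it was 0 regulators, 8 mitochondrial and 2 outside the rule, and without KO1 and WT1 it was 4 chaperones, 0 regulators, 7 mitochondrial and 2 outside the rule. At an adjusted p of 0.01 it was 0 regulators, 8 mitochondrial and 2 outside the rule, with no filter 8 mitochondrial and 2 outside the rule, and with a log2 change of at least 1 it was 10 mitochondrial and 3 outside the rule. The mitochondrial count was 49 with Gm10800 as a covariate, 43 with voom and 15 to 38 with 1 library left out, and the regulator count was 2 without KO3 and WT3 and 1 to 2 with 1 library left out.

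The log2 ratio of Rpl22l1 to Rpl22 differed by -0.081 in the 5 libraries, 0.57 without KO3 and WT3 and 0.11 to 0.53 with 1 library left out. That of Rps27l to Rps27 differed by -1.06 without KO3 and WT3 and by -1.30 to -1.12 with 1 library left out, and that of Rpl7l1 to Rpl7 by 0.48 to 0.79. The causes were not tested, beyond fewer libraries or genes in some of these fits. Libraries with the same replicate number did not deviate together (correlations of -0.21, -0.39, 0.33 and 0.01), and with the replicate block 81 members fell, with 1481 of all genes lower and 1357 higher. Sign flips of 4 paired differences cannot reach the threshold, so the paired paralogue ratios (0.23, 2.92, -1.24 and 0.65, for Rpl22l1, Rpl3l, Rps27l and Rpl7l1) carry no test. Depth limits all statements on Rpl24, Rpl3l, Rps10, Rpl39l, Rpl10l and Rps4l.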
